A study of Mus musculus with 3 samples.

Results

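Among the epithelial cells of 3 mouse pancreatic tumours, 63 cells carried RNA of at least 2 of 5 goblet cell genes, and they were examined here as goblet-marker-positive cells. A cell belonged to the group when it held at least 500 genes, at most 20% mitochondrial UMIs, at least 1 UMI of Epcam and of Krt18 (an adhesion molecule and a keratin of epithelial cells), and at least 2 UMIs of at least 2 of Spink4, Lypd8, Tff3, Zg16 and Fcgbp. A UMI (unique molecular identifier) counts 1 captured transcript. The 63 cells came from 10197 cells that met the Epcam and Krt18 gate, out of 19576 barcodes in all, with 36 in tumour 1, 12 in tumour 2 and 15 in tumour 3. They were compared with the 8096 zero-marker cells, which met the same gate and held 0 UMIs of all 5 genes, and with the 955 gastric-pit-gate cells, the part of the zero-marker cells with at least 2 UMIs of at least 2 of Gkn1, Gkn2, Tff1 and Muc5ac. The 2038 gate cells that held some UMI of the 5 genes without meeting the rule belonged to neither class.

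All 3 tumours came from KPf/fC mice, a pancreatic cancer model in which, as the name is commonly used, a Cre recombinase active in the pancreas removes Trp53. The labels give no age, no Cre driver and no treatment, and do not say whether each tumour came from its own animal, so the p-values measure only the spread between these tumours. The cells had been sorted as CD45-, CD31- and PDGFRa- and profiled with 10x 3' v2 chemistry. The design holds no normal tissue, so all comparisons are between cells of the same tumours.

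Goblet cells are the mucus-secreting cells of the intestinal epithelium. They arise from secretory progenitors through the transcription factor Atoh1, and fill their granules with the gel-forming mucin Muc2 together with proteins that bind or process it, such as Fcgbp, Clca1 and Zg16. The trefoil peptide Tff3 and Spink4 are secreted with the mucus, and Lypd8 is a surface protein that keeps bacteria away from the epithelium. The stomach makes a different mucus, with the mucin Muc5ac, the trefoil peptide Tff1 and the gastrokines Gkn1 and Gkn2 in pit cells, and Muc6 and Tff2 in gland mucous cells. Normal pancreatic ducts carry little of either program.

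Total UMIs were 60801677, 67262634 and 53162622 in tumours 1, 2 and 3. The marker-positive cells had a median depth of 9266, 9776.5 and 6368 UMIs, against 10080, 9410.5 and 7228 UMIs in zero-marker cells and 14881, 10025 and 9383.5 UMIs in gastric-pit-gate cells. They made up 1.14% of the gate cells of tumour 1 (exact binomial 95% interval 0.798% to 1.57%), 0.451% of tumour 2 (0.233% to 0.786%) and 0.343% of tumour 3 (0.192% to 0.565%), or 0.644% ± 0.431 (SD, n = 3). Intervals and limits from a count of 0 cover counting error only, and the sort and the UMI threshold bear on the share. A doublet score marked 2, 1 and 0 of the marker-positive cells, which is 3 of 63, against 2.09%, 2.63% and 2.22% of all gate cells. Pairs of tumours shared 50, 65 and 57 barcode sequences, and 3 marker-positive cells carried a shared one.

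The 5 genes of the rule were unevenly spread over the 63 cells, and their values are given as a description because the cells were selected on them. Spink4 reached 2 UMIs in 57 cells, Tff3 in 47, Lypd8 in 30, Fcgbp in 18 and Zg16 in 4. Spink4 with Tff3 was the most frequent pair, present in 42 cells, and 25 cells (39.7%) had these and no other marker at 2 UMIs. Exactly 2 markers were reached by 42 cells, 3 markers by 15, 4 markers by 3 and all 5 by 3, and all 12 cells of tumour 2 had exactly 2.

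Summed over the marker-positive cells of tumours 1, 2 and 3, Spink4 stood at 2891, 2105 and 4203 CPM (counts scaled to equal depth, before TMM scaling), against 35.5, 23.3 and 12.4 CPM in the other gate cells. Tff3 stood at 6932, 526 and 8975 CPM, against 11.8, 17.6 and 22.1 CPM. Tumour 2 was the low one for Tff3. Zg16 rested on 3 or fewer cells: 1 cell of tumour 1 held 1875 of its 1880 Zg16 UMIs, 2 cells of tumour 3 held 1614 and 243, and tumour 2 had 0. Fcgbp in tumour 2 rested on 1 cell with 2 UMIs, and Lypd8 there on 2 cells with 13 and 2 UMIs.

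The threshold cut through a continuous range of low counts. Just inside it lay 5 cells with exactly 2 markers at exactly 2 UMIs, and just outside it 129 cells with 1 marker at 2 or more UMIs and another at 1 UMI. A further 611 cells had 1 marker alone at 2 or more UMIs and 1298 had no marker above 1 UMI. Cells with collagen RNA and without Epcam and Krt18, which should lack these genes, held a Spink4 UMI in 0.938%, 0.686% and 0.216% of cells, and a Tff3 UMI in 1.41%, 0.823% and 0.647%. None of these collagen-positive cells reached 2 UMIs of Spink4, Tff3 or Fcgbp. In tumour 1, 4.10% of them held a Zg16 UMI, and 1.17% reached 2 UMIs of Zg16 and 0.117% of Lypd8. None reached 2 UMIs of either gene in tumours 2 and 3. The collagen-positive cells had median depths of 6266, 6723 and 4592 UMIs.

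The name goblet cell fitted only a few of the 63 cells when it was checked against goblet genes outside the rule. Muc2 had a UMI in 7 cells, 1 of tumour 1 and 6 of tumour 3, with 23 to 89 UMIs each. Tumour 2 had 0 of 12 cells with Muc2, which allows a share of up to 25%. Clca1, which processes the mucus gel, had a UMI in 15 cells (13, 0 and 2 in tumours 1, 2 and 3), and 44 cells had neither gene. The cells are therefore named here by the rule that selected them.

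Sorted by Muc2 and Clca1, a split made after the values were seen and so not tested, the cells differed in more than these genes. The 7 Muc2-positive cells had 0 UMIs of Tff1 and of Gkn1. Atoh1, the factor that specifies the secretory lineage, was seen in 4 of the 7 and in none of the other 56 marker-positive cells. It was also at 0 in all 8096 zero-marker cells, which allows a share of up to 0.0371%. Klk1, a kallikrein protease, was seen in 6 of the 7, and Guca2a, the precursor of guanylin, in 5 of the 7. Muc13 and Pigr were seen in all 7. The 3 cells with the most Zg16 were among them, with 89, 56 and 43 Muc2 UMIs. Retnlb, a goblet cell product of the type 2 immune response, was seen in 2 cells of tumour 3 and in no cell of the other classes compared.

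The 12 cells with Clca1 but no Muc2 all came from tumour 1, and 10 of them met the gastric-pit gate. Their Clca1 counts were 1 to 13 UMIs. Tff1 was seen in 11 of the 12, with a median of 872.5 UMIs, and Gkn1 in the same number, with a median of 139 UMIs. Among all marker-positive cells, 23 also met the gastric-pit gate (16, 5 and 2 in tumours 1, 2 and 3). The 44 cells with neither Muc2 nor Clca1 had a median of 3 Tff1 UMIs. Of these 44, 38 held Tff2, 26 held Pigr and 23 held Reg3g.

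**Figure D1:**
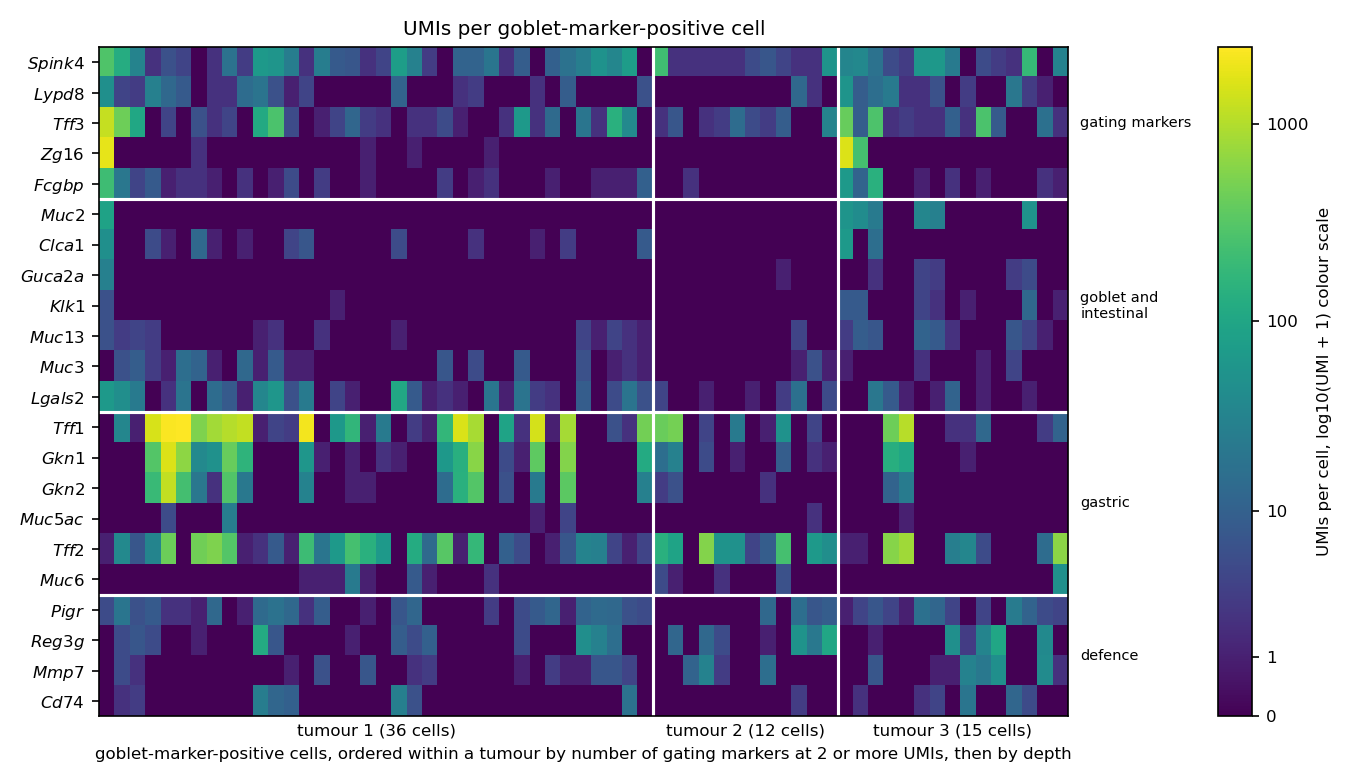
UMIs of 22 genes (down the side, in blocks of gating, goblet or intestinal, gastric and defence genes) in each of the 63 goblet-marker-positive cells (across, by tumour), on a log10(UMI + 1) colour scale. Muc2 is seen in 1 cell of tumour 1 and 6 cells of tumour 3, which have no Tff1, whereas high Tff1 and Gkn1 lie mostly in tumour 1.

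The promoters of Muc2 and Guca2a are shown because Guca2a was seen in 5 of the 7 Muc2-positive cells and in 2 of the other 56. Each line gives the 250 bases before the start of the gene, from RefSeq on GRCm38.p6, for Muc2 at chr7:141690090-141690339 and for Guca2a at chr4:119637482-119637731, both on the plus strand. Capitals mark AGATAA, a form of the motif bound by GATA factors, or its complement read on the other strand.
Muc2: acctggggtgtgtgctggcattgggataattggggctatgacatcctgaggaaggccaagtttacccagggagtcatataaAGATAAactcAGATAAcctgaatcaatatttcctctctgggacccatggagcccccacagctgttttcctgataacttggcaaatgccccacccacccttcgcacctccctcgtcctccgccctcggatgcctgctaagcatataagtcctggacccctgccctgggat
Guca2a: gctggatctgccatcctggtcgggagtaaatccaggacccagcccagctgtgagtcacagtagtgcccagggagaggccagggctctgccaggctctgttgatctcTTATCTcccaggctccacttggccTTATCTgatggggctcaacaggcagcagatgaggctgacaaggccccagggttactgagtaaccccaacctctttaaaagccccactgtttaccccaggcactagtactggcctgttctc
Both held 2 matches, which began at -169 and -159 on the plus strand in Muc2, and at -144 and -120 on the minus strand in Guca2a. Of 32851 promoters of the same length, 9.99% held at least 1 match on either strand and 0.938% at least 2. TGTTTAC, a form of the motif of FOXA factors, matched once, at -34 in Guca2a, and was held by 3.17% of promoters. TTTATNG, a form of the motif of CDX factors, had no match in these 2 windows and was held by 9.81% of promoters. The AGATAA matches overlap neither of the other motifs.

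Set against zero-marker cells of the same tumours, the marker-positive cells had higher levels of 13 of 22 tested goblet genes, 9 of 12 gastric pit cell genes and 9 of 16 mucosal defence genes, and lower levels of genes that included Vim, Sox11 and Aldh1a3. UMI counts were summed per tumour and class and tested with edgeR's quasi-likelihood test with the tumour as a block, leaving out the genes of the gates. Of 13286 genes tested, 685 passed an adjusted p of 0.05 (5.16%), of which 297 were higher (2.24%) and 388 lower (2.92%). The median log2 fold change over all genes tested was -0.25. With median-of-ratios size factors in place of TMM, that median was -0.11, and 392 of the 663 genes called were higher (59.1%), against 43.4% of the calls with TMM. Of the 297 higher genes, 159 rested on few cells, meaning that in some tumour 3 or fewer marker-positive cells held a UMI or that 3 cells held most of its UMIs. When the tumour was not fitted as a block, 75 passed, and with every cell thinned to 3000 UMIs, 283. Without the 19 cells that held Muc2 or Clca1, 372 passed, in a fit of tumours 1 and 2 since 9 cells were left in tumour 3. Leaving out tumours 1, 2 and 3 in turn left 261, 420 and 493 genes. Levels below are TMM-scaled CPM of these sums, and fold changes are log2 values ± SE. This SE rests in part on spread shared across genes, so it does not measure how far a gene varied between the tumours. Classes are said not to overlap where all 3 tumour sums of 1 class lie above all 3 of the other. This does not describe single cells. The share of all genes tested that separate in this way was not counted in either comparison, so non-overlap is given as a description only.

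Genes of the mucous barrier led the higher genes. Of 27 goblet cell products and effectors, 22 could be tested and 13 were higher, none lower, with a median log2 fold change of 2.82. Of the 13, 12 rested on few cells, Agr2 being the exception. Among them Muc2, Muc13, Guca2a and Clca1 were almost absent from zero-marker cells. These passed the filter on low counts through the marker-positive sums alone, so they could only be called higher. Muc2 stood at 270.4, 0 and 2001 CPM in marker-positive cells of tumours 1, 2 and 3, against 0.155, 0.0825 and 0.208 CPM in zero-marker cells. Tumour 1 owed its value to 1 cell, and tumour 2 had 0 Muc2 UMIs in its 12 cells. The log2 fold change of Muc2 was 11.85 ± 0.46 (adjusted p = 5.33e-143 in the edgeR test). This SE and p-value do not measure how far Muc2 varied between the tumours. Muc2 and Clca1 did not pass the filter on low counts without tumour 1 or without tumour 3, so their calls have no such check.

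Muc13, a mucin anchored in the apical membrane, stood at 103, 25.4 and 437 CPM in marker-positive cells, against 0.66, 0.247 and 0.625 CPM in zero-marker cells. It was higher in every tumour and seen in 13, 1 and 9 cells, with a log2 fold change of 8.17 ± 0.45 (adjusted p = 2.72e-71). Muc3, another membrane mucin, had 307, 50.8 and 67.3 CPM in marker-positive cells, against 9.94, 12.5 and 0.139 CPM in zero-marker cells, and rested on 19, 3 and 4 cells. Its log2 fold change was 4.46 ± 0.39 (adjusted p = 1.33e-27). Muc3 and Muc13 remained called when any 1 tumour was left out.

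Agr2, a disulphide isomerase that folds mucins, was seen in most cells, with a UMI in 28 of 36, 8 of 12 and 14 of 15 cells. It stood at 987, 2561 and 2506 CPM in marker-positive cells, against 382, 309 and 124 CPM in zero-marker cells (log2 fold change 2.93 ± 0.21, adjusted p = 9.86e-40). The classes did not overlap. Guca2a had 88.1, 6.36 and 143 CPM in marker-positive cells, against 0.0388, 0.247 and 0.729 CPM in zero-marker cells (log2 fold change 7.89 ± 0.81, adjusted p = 7.87e-20), and in tumours 1 and 2 it came from 1 cell each. Klk1, at 21.3, 0 and 311 CPM in marker-positive cells against 6.56, 0.577 and 4.62 CPM in zero-marker cells, lost its call without tumour 3, as did Ccl6, and Bcas1, Rep15, Sytl2 and Atp2a3 lost theirs without tumour 1. Fer1l6 was at 0 in tumours 2 and 3, and its log2 fold change of 3.00 turned to -7.67 without tumour 1.

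Enzymes that build and fold mucins were higher in part. Of 28 such genes, 22 were tested, 9 were higher and none lower, with a median of 0.89. Ern2, the stress sensor kinase of mucous cells, stood at 45.6, 50.8 and 109 CPM in marker-positive cells, against 23, 9.94 and 15.9 CPM in zero-marker cells (log2 fold change 1.94 ± 0.40, adjusted p = 8.43e-05). Gcnt3, which branches mucin sugars, stood at 246, 133 and 101 CPM in marker-positive cells, against 64.9, 44.4 and 48 CPM in zero-marker cells (log2 fold change 1.60 ± 0.29, adjusted p = 3.44e-06). Both were higher in every tumour and kept their calls when any 1 tumour was left out. B3gnt7 was seen in tumour 3 alone, and its log2 fold change of 3.29 turned to -7.89 without it. St6galnac6 and Slc35a1 lost their calls without tumour 3, Galnt7 without tumour 1 or 2, Galnt12 without tumour 2 or 3, and Chst4 without any 1 tumour. Among 24 tested genes of the unfolded protein response and the secretory pathway, 3 were higher (Ssr4, Sec61b and Sdf2l1), with a median of 0.14, and all 3 lost their calls without tumour 3.

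Few transcription factors passed the test. Of 20 tested factors of the secretory lineage and the Notch pathway, Creb3l1 and Xbp1, which drive secretory capacity, were higher and Sox4 was lower. Creb3l1 stood at 45.6, 76.3 and 101 CPM in marker-positive cells, against 25.7, 11.9 and 17.2 CPM in zero-marker cells (log2 fold change 1.92 ± 0.38, adjusted p = 3.75e-05). Xbp1 had a log2 fold change of 0.93 ± 0.26 and lost its call without tumour 2. Spdef, a factor of goblet cell maturation, did not pass (1.01 ± 0.54, adjusted p = 0.369) and was seen in 13.9, 16.7 and 13.3% of marker-positive cells, against 15.7, 7.1 and 6.82% of zero-marker cells. None of 14 tested intestinal transcription factors passed. Cdx2, which sets intestinal identity, had a log2 fold change of 3.00 ± 1.24 (adjusted p = 0.167), and Cdx1 or Cdx2 was seen in 5 of the 63 cells (0, 1 and 4).

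Of 12 tested pit cell genes of the stomach 9 were higher and none lower, with a median of 1.96, and 6 of the 9 rested on few cells. Tff1 stood at 54808, 6260.0 and 12883 CPM in marker-positive cells, against 3463, 1253 and 1581 CPM in zero-marker cells (log2 fold change 3.11 ± 0.15, adjusted p = 2.91e-89). Tumour 1 was the high one, and 3 cells held 96.8% of the Tff1 UMIs in tumour 2 and 98.8% in tumour 3. Tff1 was also seen in 42.7%, 27.4% and 15.2% of collagen-positive cells, which should lack it. Gkn1 stood at 15772, 407 and 1959 CPM in marker-positive cells, against 364, 202 and 255 CPM in zero-marker cells (3.17 ± 0.20, adjusted p = 5.40e-52). It rested on few cells, with 3 in tumour 3, and 3 cells held 53.3% of its UMIs in the marker-positive cells. Several pit cell calls depended on 1 tumour. Without tumour 1, the log2 fold change of Muc5ac turned to -0.13, that of Cldn18 to -1.82 and that of Dpcr1 to -10.38, and Gkn2 and Psca lost their calls. Gkn3 lost its call without tumour 2.

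Of the genes of gland mucous cells, Tff2 was higher in every tumour. This trefoil peptide stood at 10066, 8230.2 and 17887 CPM in marker-positive cells, against 1978, 1179.6 and 2327 CPM in zero-marker cells (log2 fold change 2.70 ± 0.16, adjusted p = 1.21e-60), and it was seen in 32, 10 and 9 cells. The classes did not overlap for Tff2. Of 6 tested genes of gastric and Brunner gland mucous cells, Tff2, Muc6 and Aqp5 were higher and none was lower. Aqp5 rested on tumour 2, and its log2 fold change of 1.17 turned to -0.26 without it.

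Of 17 tested enterocyte genes 7 were higher and none lower, with a median of 1.60, whereas 9 of the 26 listed genes were at 0 in all 63 cells, among them the brush border enzymes Sis, Lct and Alpi. Lgals4, a galectin of gut epithelium, stood at 2358, 477 and 2868 CPM in marker-positive cells, against 650.4, 384 and 479.8 CPM in zero-marker cells (1.63 ± 0.20, adjusted p = 1.52e-13). The related galectin Lgals2 was among the strongest genes, at 1553, 197 and 370.0 CPM in marker-positive cells, against 64.6, 33.2 and 9.9 CPM in zero-marker cells (4.19 ± 0.26, adjusted p = 1.25e-53), in 41 of the 63 cells. Rbp2, a retinol-binding protein of enterocytes, had a log2 fold change of 2.62 ± 0.30, and Prap1 one of 1.60 ± 0.25. The calls of Fabp2, Cdhr5 and Cdhr2 ended without tumour 1, and that of Reg1 without tumour 2. Of 3 tested Paneth cell genes Mmp7, which activates defensins, was higher, and the defensins and Lyz1 in the list were at 0.

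Of 16 tested genes of mucosal defence 9 were higher and 1, the acute phase gene Saa3, was lower, with a median of 1.06. Pigr, the receptor that carries immunoglobulin A into the lumen, stood at 644, 286 and 833 CPM in marker-positive cells, against 74.7, 33.2 and 32 CPM in zero-marker cells (log2 fold change 3.64 ± 0.25, adjusted p = 1.41e-43), and was seen in 44 of the 63 cells. Reg3g, a bactericidal lectin, stood at 808, 1322 and 1909 CPM in marker-positive cells, against 119, 144 and 172 CPM in zero-marker cells (3.15 ± 0.22, adjusted p = 1.17e-44). The 3 highest cells held 73.3%, 85.1% and 83.7% of its UMIs in the 3 tumours. Dmbt1, a scavenger receptor of mucosal secretions, stood at 5916, 3349 and 4306 CPM in marker-positive cells, against 568, 496 and 1357 CPM in zero-marker cells (2.61 ± 0.18, adjusted p = 3.81e-43), and was seen in all but 6 of the 63 cells. For Pigr, Reg3g and Dmbt1 the sums of the classes did not overlap and the calls held when any 1 tumour was left out. Single cells did overlap, as Reg3g was seen in 27 of the 63 cells and in 20.7, 20.6 and 28.1% of zero-marker cells of tumours 1, 2 and 3. Saa3 had 39.5, 6.36 and 0 CPM in marker-positive cells, against 608, 146 and 88.9 CPM in zero-marker cells (-4.15 ± 0.40, adjusted p = 3.89e-22). Reg3b lost its call without tumour 2 or 3, Ltf without tumour 1 and Pla2g10 without tumour 3.

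Genes of antigen presentation by MHC class II were higher on few cells. Of 6 tested genes 4 were higher, with a median of 2.95. Cd74, the invariant chain, stood at 319, 19.1 and 378 CPM in marker-positive cells, against 64.1, 12.7 and 20.5 CPM in zero-marker cells (2.76 ± 0.30, adjusted p = 5.40e-17), from 8, 1 and 6 cells. H2-Aa and H2-Eb1 were at 0 in marker-positive cells of tumour 2 and lost their calls without tumour 1. Of 9 tested haematopoietic markers none passed, and 6 of the 12 in the matrix, among them Cd3e, Cd79a, Adgre1 and Tyrobp, were at 0. The list summed to 10.97, 27.0 and 17.8 CPM in marker-positive cells, against 31.2, 19.9 and 11.8 CPM in zero-marker cells, so it was higher in tumours 2 and 3. The part of haematopoietic RNA in these values was not tested. Mcpt1 and Mcpt2, proteases known from mast cells, were higher (1.92 ± 0.28 and 2.09 ± 0.25), Mcpt8 was lower (-4.28 ± 0.46), and the mast cell genes Cpa3, Ms4a2 and Tpsb2 were at 0.

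**Figure D2:**
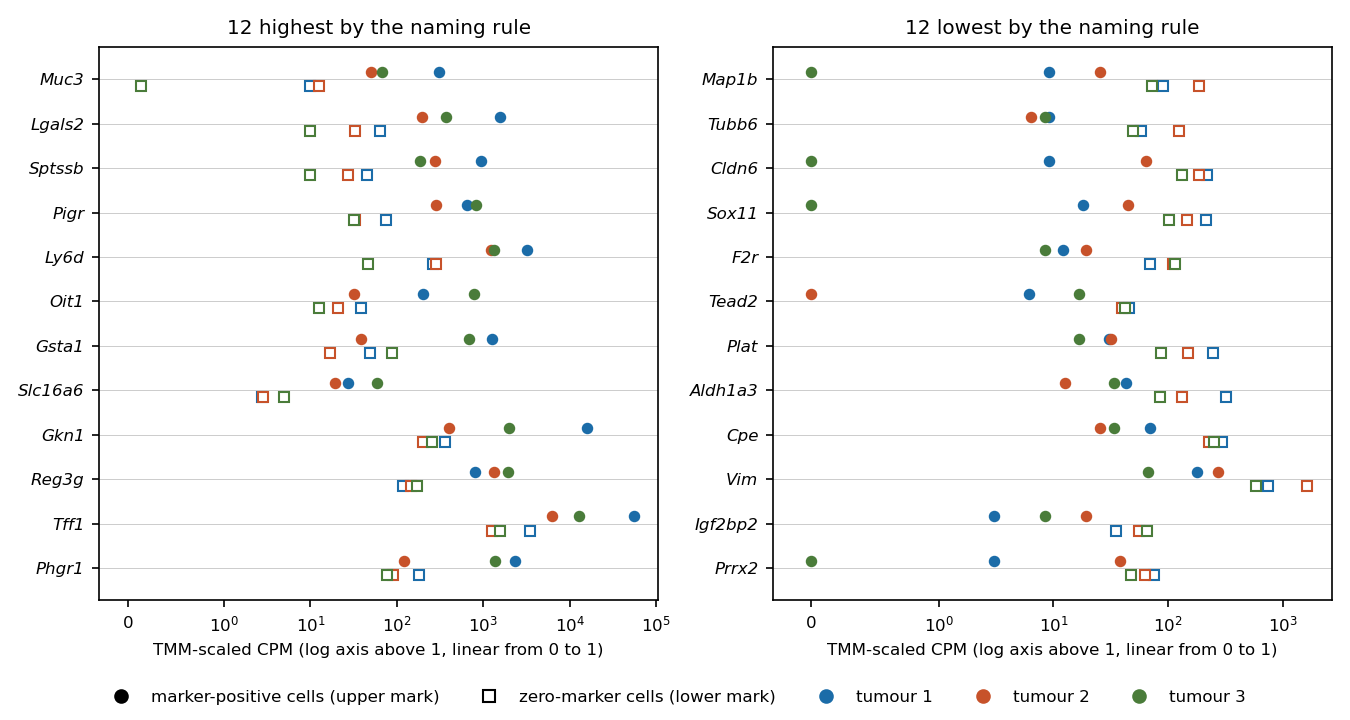
TMM-scaled CPM per tumour of the 12 genes with the highest and the 12 with the lowest log2 fold change by the naming rule, in goblet-marker-positive cells (filled circles, upper) and zero-marker cells (open squares, lower), on an axis that is logarithmic above 1. Every filled circle of the higher genes lies right of the square of its tumour, as for Pigr at 644 against 74.7 CPM in tumour 1, and every filled circle of the lower genes lies left of it.

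By the rule for named genes (same sign in every tumour and seen in at least 20% of the cells of the higher class), the 12 highest were Muc3, Lgals2, Sptssb, Pigr, Ly6d, Oit1, Gsta1, Slc16a6, Gkn1, Reg3g, Tff1 and Phgr1. Sptssb, a subunit of the enzyme that starts sphingolipid synthesis, stood at 942, 279.6 and 185 CPM in marker-positive cells, against 45.4, 27.3 and 9.79 CPM in zero-marker cells (4.0 ± 0.27, adjusted p = 2.75e-46). Ly6d, a surface protein, stood at 3212, 1233 and 1346 CPM in marker-positive cells, against 263, 281 and 46.2 CPM in zero-marker cells (3.53 ± 0.22, adjusted p = 7.14e-56). The classes did not overlap for either gene, but the rule had already required the same sign in every tumour. Gsta1, a glutathione transferase, had a log2 fold change of 3.30 ± 0.28, Oit1 one of 3.33 ± 0.32 and Phgr1, a small protein of gut epithelium, one of 3.02 ± 0.24. Slc16a6, a monocarboxylate transporter, rested on 3 cells in tumour 2 and lost its call without tumour 1. Muc3 and Gkn1 also rested on few cells.

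The 12 lowest were Map1b, Tubb6, Cldn6, Sox11, F2r, Tead2, Plat, Aldh1a3, Cpe, Vim, Igf2bp2 and Prrx2. Vim, the intermediate filament of mesenchymal cells, stood at 179, 273 and 67.3 CPM in marker-positive cells, against 743, 1626 and 585 CPM in zero-marker cells (-2.49 ± 0.24, adjusted p = 3.54e-23). Sox11, a factor of embryonic and neural progenitors, stood at 18.2, 44.5 and 0 CPM in marker-positive cells, against 213, 146 and 101 CPM in zero-marker cells (-2.96 ± 0.39, adjusted p = 1.44e-11). Aldh1a3, a retinaldehyde dehydrogenase, stood at 42.5, 12.7 and 33.6 CPM in marker-positive cells, against 317, 131 and 84.1 CPM in zero-marker cells (-2.65 ± 0.37, adjusted p = 2.01e-10). For these 3 genes the classes did not overlap, and each call held when any 1 tumour was left out. Map1b and Tubb6, which act on or form microtubules, had log2 fold changes of -3.30 ± 0.46 and -3.14 ± 0.53. Prrx2, Igf2bp2 and Tead2 lost their calls without tumour 1.

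The list of the classical tumour type held higher calls alone, and that of the basal-like type held calls in both directions. Of 19 tested genes of the classical pancreatic tumour type 13 were higher and none lower, with a median of 1.32. Of the 13, 6 rested on few cells, and several, such as Tff1, Tff2, Agr2 and Muc13, stand in the lists above. Among basal-like genes, Slc2a1, Areg and Krt7 were lower and Ly6d was higher. The calls of Areg and Krt7 ended without tumour 1, and that of Slc2a1 without tumour 1 or 2, whereas that of Ly6d held when any 1 tumour was left out. Of the 20 basal-like genes listed, 10 were at 0 in marker-positive cells. Of 13 tested ductal genes Car2, a carbonic anhydrase, was higher, and the ductal keratin Krt7 and Spp1 were lower. Spp1 stood at 7641, 8141 and 858 CPM in marker-positive cells, against 10804, 15494 and 8034 CPM in zero-marker cells (-1.47 ± 0.16, adjusted p = 5.78e-18), and lost its call without tumour 3. Of 15 tested genes of ion and water transport 4 were higher (Car2, Car9, Kcne3 and Aqp5), and Car9 lost its call without tumour 1 or 2 and Kcne3 without tumour 2. No cell cycle gene passed among 21 of S phase and 22 of G2 and M phase.

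Few markers of other cells that could lie in the gate passed the test as higher. Of 12 tested enteroendocrine genes 6 were lower and none higher, with 10 of the 18 listed at 0 in marker-positive cells. Ghrl, the precursor of ghrelin, stood at 0, 12.7 and 0 CPM in marker-positive cells, against 6.76, 305 and 0.382 CPM in zero-marker cells, so its call rested on tumour 2. Chgb and Tph1 lost their calls without tumour 1 or 2, and Gcg without tumour 1. Of 10 tested acinar genes Cpa1, Prss2 and Ctrb1 were lower and Cela1 was higher, and the list summed to 299, 40.5 and 338 CPM in marker-positive cells, against 1080, 58.7 and 691 CPM in zero-marker cells. Prss2 and Cela1 lost their calls without tumour 1, and Cpa1 without tumour 1 or 2. With a looser gate of at least 2 markers at 1 UMI, the log2 fold changes of Cpa1, Prss2 and Ctrb1 were 3.73, 3.37 and 2.79. Zg16 is also made in the zymogen granules of acinar cells. The part of acinar RNA in these values was not tested.

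None of 10 tested tuft cell genes passed, and Trpm5 and Pou2f3 were at 0. Prom1 alone was higher of 15 genes of intestinal stem and crypt cells, and lost its call without tumour 1. Clca1 alone was higher of 8 tested genes of the type 2 cytokine response, and as given above it could only be called higher. Of 10 fibroblast genes 3 were lower (Col1a1, Col1a2 and Dcn), all with calls that ended without tumour 1. Of 8 pericyte genes Acta2 and Rgs5 were lower, Rgs5 with a call that ended without any 1 tumour. Of 7 mesothelial genes Msln was lower, and no endothelial gene of 8 passed.

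**Figure D3:**
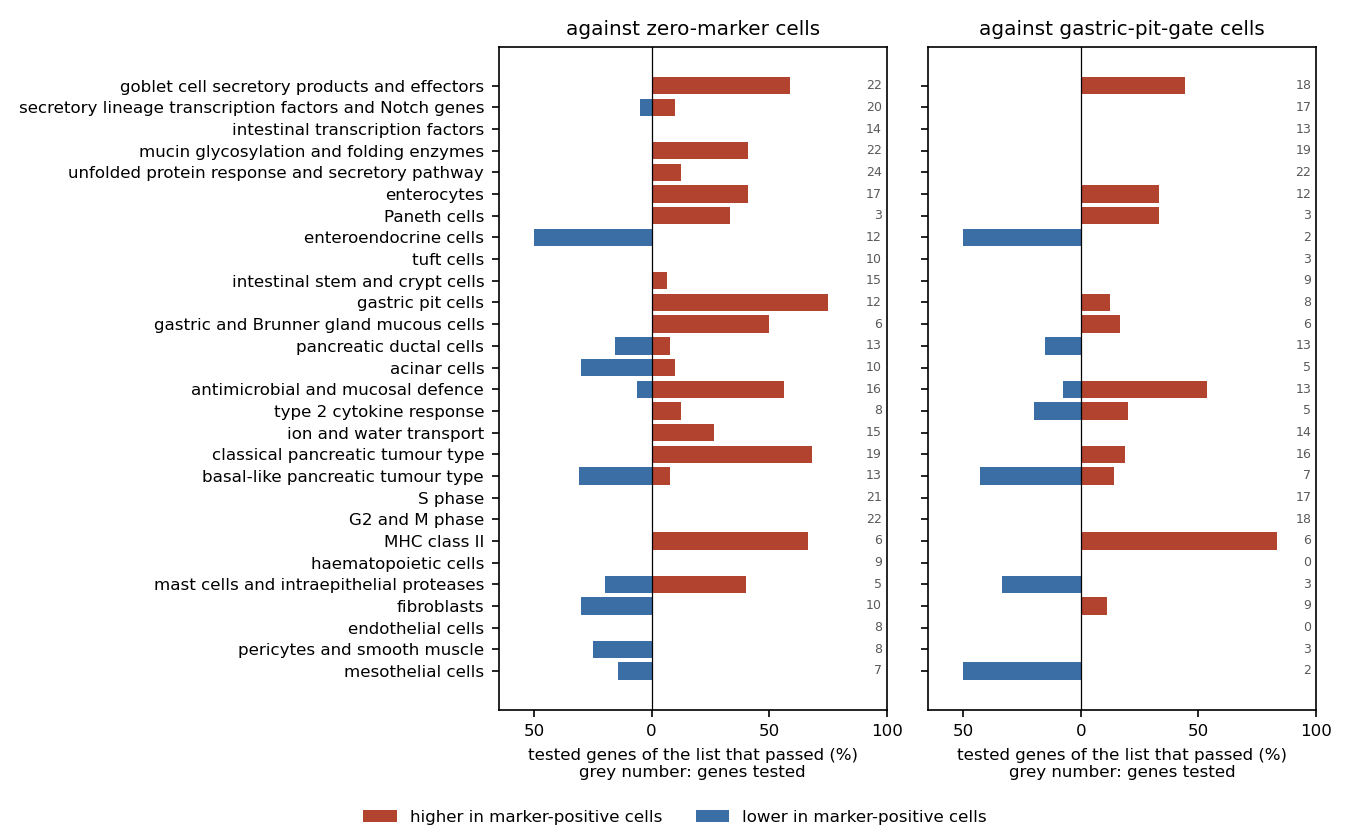
Share of the tested genes of each of 28 gene lists that passed at an adjusted p of 0.05 (edgeR), higher in goblet-marker-positive cells to the right and lower to the left, against zero-marker cells and against gastric-pit-gate cells. The gastric pit list has 9 of 12 genes higher against zero-marker cells and 1 of 8 against gastric-pit-gate cells, and the MHC class II list 4 of 6 and 5 of 6. Genes almost absent from the compared cells, such as Muc2, passed the filter on low counts through the marker-positive sums and could only be called higher.

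A second comparison used the gastric-pit-gate cells, which lack the 5 goblet genes by definition, because 23 of the 63 marker-positive cells met the same gastric gate. Against them the genes higher in marker-positive cells included 8 of 18 tested goblet genes, 7 of 13 defence genes and 5 of 6 MHC class II genes, and the lower ones included En1 and Aldh1a3. Goblet and MHC class II genes almost absent from gastric-pit-gate cells could only be called higher, as given below. Of 9153 genes tested, 147 passed (1.61%), of which 95 were higher (1.04%) and 52 lower (0.568%), with a median log2 fold change of -0.08 over all genes tested. Of the 95, 56 rested on few cells. Without tumour 3, 12 genes passed, without tumour 1, 97, and without tumour 2, 311. When the tumour was not fitted as a block, 11 passed, and without the 19 cells that held Muc2 or Clca1, 71. The Gkn1, Gkn2, Tff1 and Muc5ac genes of the gate were left out of this test.

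The goblet list kept 8 higher genes of 18 tested and none lower, with a median of 1.77, and all 8 rested on few cells. Muc2, Guca2a, Clca1, Klk1 and Muc13 were almost absent from gastric-pit-gate cells. They passed the filter on low counts through the marker-positive sums alone, so they could only be called higher. Guca2a was at 0 in all 955 gastric-pit-gate cells and had 47 UMIs in marker-positive cells, which is at least 309-fold higher when 3 counts over the group are taken as the floor. Muc2 stood at 274, 0 and 2119 CPM in marker-positive cells, against 0.158, 0 and 0.291 CPM in gastric-pit-gate cells (11.62 ± 0.51, adjusted p = 3.50e-12). Muc13 stood at 105, 26 and 463 CPM in marker-positive cells, against 1.11, 2.03 and 0.291 CPM in gastric-pit-gate cells (7.20 ± 0.60, adjusted p = 5.94e-08), a call that held when any 1 tumour was left out. Agr2 did not pass here (1.09 ± 0.33, adjusted p = 0.121), and none of 19 tested mucin glycosylation and folding enzymes did.

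Of 13 tested defence genes 7 were higher than in gastric-pit-gate cells, among them Dmbt1 (2.41) and Lcn2 (2.54), and 1, Wfdc2, was lower. Reg3g stood at 818, 1352 and 2021 CPM in marker-positive cells, against 63.4, 132 and 60.2 CPM in gastric-pit-gate cells (4.02 ± 0.29, adjusted p = 9.53e-09), and Mmp7 at 154, 397 and 1371 CPM in marker-positive cells, against 11.2, 45.2 and 132 CPM in gastric-pit-gate cells (3.42 ± 0.25, adjusted p = 1.17e-08). Tstd1, a sulphur transferase, stood at 231, 124 and 303 CPM in marker-positive cells, against 13.1, 26.4 and 19.2 CPM in gastric-pit-gate cells (3.54 ± 0.34, adjusted p = 7.87e-07). These 3 genes did not overlap between the classes, and their calls held when any 1 tumour was left out. Pigr had 652, 293 and 881 CPM in marker-positive cells, against 37.2, 95.4 and 53.8 CPM in gastric-pit-gate cells (3.34 ± 0.37, adjusted p = 6.09e-06). Of 6 tested MHC class II genes 5 were higher, with a median of 5.07, and all 5 rested on few cells. In gastric-pit-gate cells of tumours 1, 2 and 3 the list summed to 14.97, 6.97 and 13.3 CPM before TMM scaling. Genes this low could pass the filter on low counts through the marker-positive sums alone, as Cd74 did. They could then only be called higher. Cd74 stood at 323, 19.5 and 401 CPM in marker-positive cells, against 6.02, 2.03 and 5.23 CPM in gastric-pit-gate cells (5.70 ± 0.40, adjusted p = 6.48e-09), and no haematopoietic gene was abundant enough to be tested.

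The other named higher genes were Slc16a6, Plet1, Muc3, Lgals2, Ly6d, Sptssb, Lrg1 and Wfdc18, with log2 fold changes of 2.61 to 3.25. Each of these, and Pigr, Dmbt1 and Lcn2, lost its call without tumour 3. Slc16a6, Muc3, Lrg1 and Wfdc18 rested on few cells, each with 3 marker-positive cells in tumour 2, and 3 cells held 69.1% of the Wfdc18 UMIs. Slc16a6 stood at 3.01, 2.03 and 6.10 CPM in gastric-pit-gate cells of tumours 1, 2 and 3. It passed the filter on low counts through the marker-positive sums alone, so it could only be called higher. The 12 named lower genes were En1, Aldh1a3, Uts2, Cldn6, Prrx2, Igf2bp2, Map1b, Prss22, Cybrd1, Npy, Cpe and Ptges. Aldh1a3 stood at 43.1, 13 and 35.6 CPM in marker-positive cells, against 532, 262 and 257 CPM in gastric-pit-gate cells (-3.57 ± 0.34, adjusted p = 6.49e-07). En1, a homeobox factor, stood at 9.23, 0 and 0 CPM in marker-positive cells, against 82.9, 148 and 30.2 CPM in gastric-pit-gate cells (-4.16 ± 0.60, adjusted p = 0.000223). Of these 12, Aldh1a3 alone remained called without tumour 3. Sult1c2 was the 1 pit list gene that was higher of 8 tested, and Tff2 the 1 gland mucous gene of 6, with calls that ended without tumour 3.

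The remaining lists held few calls against gastric-pit-gate cells. Of 12 tested enterocyte genes 4 were higher (Fabp2, Reg1, Cdhr5 and Rbp2), and of 16 classical genes 3 (Ceacam1, Muc13 and Tff2). Among basal-like genes, Ly6d was higher and Areg and Krt7 were lower. Of 13 ductal genes Wfdc2 and Krt7 were lower. Mmp7 was higher of 3 Paneth cell genes, Clca1 higher and Il33 lower of 5 type 2 genes, Cpe lower of 2 enteroendocrine genes, Mcpt8 lower of 3 mast cell proteases, Msln lower of 2 mesothelial genes and Col3a1 higher of 9 fibroblast genes. The calls of Col3a1, Il33, Fabp2, Areg and Mcpt8 ended without tumour 1 or 3. Those of Reg1, Rbp2, Ceacam1, Tff2, Ly6d, Krt7, Wfdc2, Cpe and Msln ended without tumour 3. Clca1 and Cdhr5 did not pass the filter on low counts without tumour 1 or without tumour 3. In tumour 2 Ceacam1 ran the other way, at 19.5 CPM in marker-positive cells against 46.2 CPM in gastric-pit-gate cells. The fibroblast list had a median log2 fold change of 0.95 and summed to 1451, 1815 and 1434 CPM in marker-positive cells, against 564, 787 and 1139 CPM in gastric-pit-gate cells, so it was higher in every tumour. It had 261 and 131 UMIs in 2 marker-positive cells of tumour 1, 193 in 1 of tumour 2 and 144 in 1 of tumour 3, and at most 63 in any other. The part of fibroblast RNA in these values was not tested. No gene passed among 17 secretory lineage factors, 13 intestinal factors, 22 unfolded protein response genes, 14 transport genes, 9 stem cell genes, 3 tuft cell genes, 5 acinar genes, 3 pericyte genes and the 17 and 18 cell cycle genes.

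Because depth differed between the classes, the share of cells in which a gene was seen was computed at equal depth too. With each cell thinned to 3000 UMIs, which leaves out 1 marker-positive, 198 zero-marker and 5 gastric-pit-gate cells of tumour 3, Muc2 was seen in 2.78, 0 and 35.7% of marker-positive cells of tumours 1, 2 and 3, against 0, 0 and 0% of gastric-pit-gate cells and 0.0888, 0.0444 and 0.0884% of zero-marker cells. Pigr was seen in 63.9, 33.3 and 57.1% of marker-positive cells, against 6.18, 14.9 and 8% of gastric-pit-gate cells and 14.6, 5.15 and 6.1% of zero-marker cells. Without thinning Pigr was seen in 75, 33.3 and 86.7% of marker-positive cells, against 20.4, 8.08 and 9.07% of zero-marker cells and 1.64, 0.96 and 0.431% of collagen-positive cells. Mmp7 was less separated from zero-marker cells, at 27.8, 25 and 50% of marker-positive cells against 11.1, 12.6 and 44.8% of zero-marker cells. Aldh1a3 ran the other way, at 8.33, 0 and 7.14% of marker-positive cells, against 54.7, 38.8 and 36.3% of gastric-pit-gate cells and 33.6, 23.1 and 15% of zero-marker cells.

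**Figure D4:**
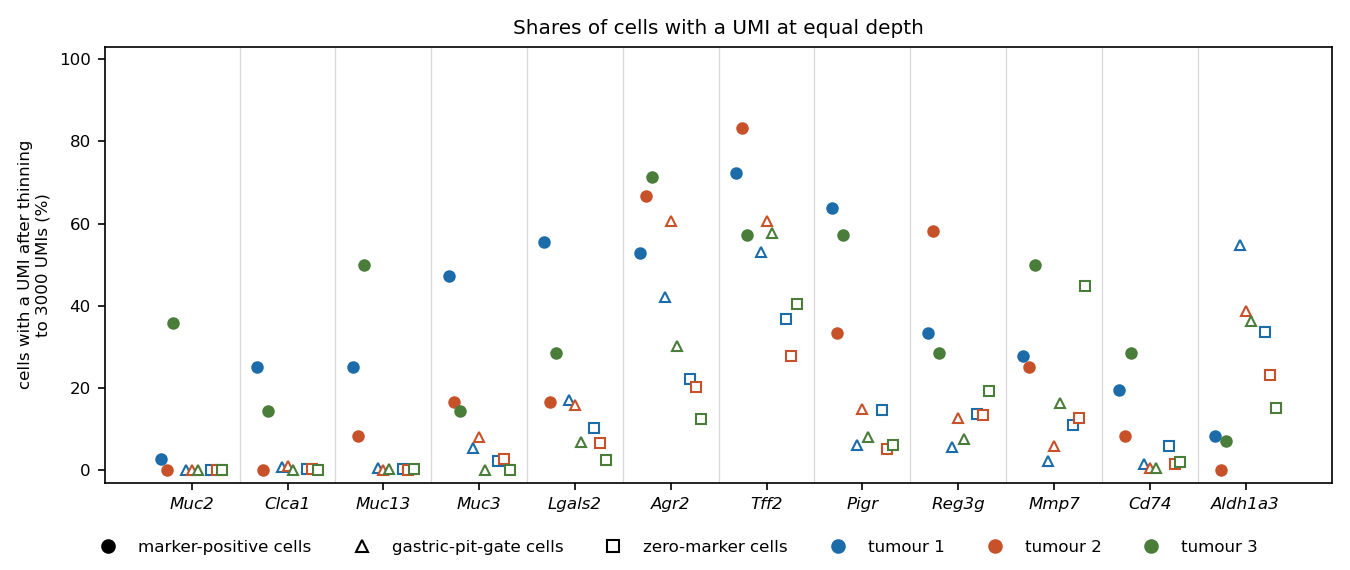
Share of cells (%) with a UMI of 12 genes after each cell was thinned to 3000 UMIs, per tumour (colour), in goblet-marker-positive cells (filled circles, left), gastric-pit-gate cells (triangles, middle) and zero-marker cells (squares, right). Pigr reaches 63.9% of marker-positive cells in tumour 1 against 14.6% of zero-marker cells, while Aldh1a3 stays at or below 8.33% in marker-positive cells.

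In the authors' deposited table of 19 clusters, cluster 13 had the highest log2 fold change for Zg16 (9.08), Muc2 (5.49), Fcgbp (5.32), Clca1 (5.14), Tff3 (5.11) and Spink4 (2.81). The same cluster of the authors' deposited table also led for the acinar protease gene Ctrb1 (7.15). In the authors' deposited table Lypd8 and the gastric gene Tff1 were highest in cluster 8 instead (4.88 and 4.01). The adjusted p-values in the authors' deposited table were 0.0699 for Muc2 and 0.256 for Spink4 in cluster 13. How the clusters relate to the 63 cells was not analysed here.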

How the data were processed

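Single-cell RNA of 3 KPf/fC tumours (10x 3' v2, sorted as CD45-, CD31- and PDGFRa-) was deposited by the authors as 1 matrix of raw UMI counts, with barcodes whose suffix gives the tumour, per the labels. The submitters' processing notes name Cell Ranger 2.1.1 and Seurat 3.0. The genome build was not given in the sources used here. Results for 1 gene of the lists are not reported here. A cluster table deposited by the authors holds log2 fold changes with adjusted p-values for each gene, per the file headers, and was copied without a test.

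Cells with under 500 genes or over 20% mitochondrial counts were removed, leaving 5802, 6072 and 7428 cells. Scrublet (scanpy 1.11.5) scored doublets and marked 1.38%, 1.50% and 1.48% of cells, which stayed in. Counts were summed per tumour (at least 10 cells) and class, with 112312 to 364523 UMIs for the marker-positive sums, and tested with edgeR 4.0.16 in R 4.3.3 (TMM, filterByExpr, quasi-likelihood test, tumour as block, Benjamini-Hochberg at 0.05). The block pairs sums of the same tumour. The SE was taken as the size of the log2 fold change over the root of F. Gating genes were not tested. The test was also run on simulated counts with the same spread set for all genes. That run did not include sums carried by a few cells, so it does not bear on such calls. Genes named were the 12 highest and 12 lowest past the threshold, with 1 sign in all tumours and a UMI in at least 20% of cells of the higher class, and members of 28 lists. The members and lists were chosen with earlier results of these data known. Alternatives were DESeq2 1.42.0, other scaling, no filter, no block, thinning, depth matching, doublet removal, other gates and leaving out a tumour.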

Additional observations from a re-analysis of the deposited data

How the results depend on the processing

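Against zero-marker cells, where 685 genes passed, 344 passed with DESeq2, 283 with thinned cells, 305 with comparison cells matched on total UMIs and 2115 with at least 2 markers at 1 UMI. With no replicate block, so that the pairing of sums within a tumour was ignored, 75 genes passed against zero-marker cells and 11 against gastric-pit-gate cells. Leaving out 1 tumour gave 261 to 493 against zero-marker cells and 12 to 311 against gastric-pit-gate cells. Without cells holding Muc2 or Clca1, an alternative chosen after seeing the data, 372 and 71 passed. Against gastric-pit-gate cells, where 147 passed, 96 passed with DESeq2, 304 with no filter, 67 with matched cells and 294 with the looser gate. With median-of-ratios size factors, no filter, no marked doublets or all other gate cells as comparison, 663, 646, 738 and 562 passed against zero-marker cells. The mean share of 0.644% was 0.198% with at least 3 markers, 3.10% with the looser gate and 0.397% to 0.795% without 1 tumour. A fit with at least 3 markers was not possible, since 13, 0 and 8 cells were left.

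Of the genes named or listed, 24 of 112 kept their call in every setting that tested them against zero-marker cells, among them Agr2, Dmbt1, Lgals2, Ly6d, Pigr, Reg3g, Tff2 and Vim, and 11 of 56 against gastric-pit-gate cells, among them Reg3g, Tstd1, Cd74 and Aldh1a3. Both counts include genes that could not be tested without tumour 1 or without tumour 3. These are Muc2 and Clca1 against zero-marker cells, and Muc2, Guca2a, Ccl6, H2-Aa, H2-Ab1 and H2-Eb1 against gastric-pit-gate cells. Reversed log2 fold changes were those of Dpcr1 with DESeq2 (-0.99) and, with the looser gate, of Cpa1 (3.73), Prss2 (3.37), Ctrb1 (2.79) and Msln (0.034). Leaving out 1 tumour moved B3gnt7 between -7.89 and 4.74, Muc5ac between -0.13 and 4.23, Cldn18 between -1.82 and 2.92, Fer1l6 between -7.67 and 3.89, Aqp5 between -0.26 and 1.82 and Dpcr1 between -10.38 and 2.41. Without cells holding Muc2 or Clca1, B3gnt7 (-7.82), Klk1 (-0.68) and Ccl6 (-7.71) reversed. The cause was not tested. The smallest class held 12 cells, in tumour 2, which limits the precision of its values.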
